A study of Mus musculus with 6 samples.

Results

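Malat1, Neat1, Meg3, Miat and Snhg11 are genes of long noncoding RNAs that are kept largely in the nucleus, and the array carried 24 probe sets that the platform annotation assigned to 1 of these 5 symbols alone, of 45101 probe sets in all, for 5 genes of the 18193 that the annotation named singly. Malat1 had 7 of them, Meg3 11, and Neat1, Miat and Snhg11 2 each. The group was chosen by the measured difference of Malat1 between high dose and control arrays and by the disagreement among its probe sets in that difference, so those values are given as a description with no test. All 24 probe sets lay above the median of their array on all 6 arrays. The suffix _a marks a probe set shared by transcripts of 1 gene, and _s or _x one that may also read other, similar sequences.

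Long noncoding RNAs act without being translated. Malat1 is abundant in neurons and gathers in nuclear speckles, the stores of splicing factors. Neat1 is the scaffold of paraspeckles, nuclear bodies that hold RNA-binding proteins such as Nono and Sfpq. Meg3 is an imprinted RNA of the Dlk1 locus, transcribed from the maternal chromosome. Miat, also called Gomafu, forms nuclear foci in neurons, and Snhg11 is a neuronal host gene of small nucleolar RNAs. In the RefSeq gene table of GRCm38.p6 Malat1 and Neat1 are neighbours on chromosome 19. Sorted by lower coordinate, 1 entry is listed between theirs, the small cytoplasmic RNA mascRNA. It is cut from the Malat1 transcript and so belongs to the Malat1 locus. Meg3 is on chromosome 12, Miat on chromosome 5 and Snhg11 on chromosome 2.

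RefSeq promoter windows of 300 bases around a gene's start were at hand for 4 of the 5 genes. Those of Malat1 and Meg3 are shown since these 2 genes carried most of the probe sets, and both windows hold the core TGACG of the cAMP response element, the site through which CREB acts. Capitals mark TGACG on either strand, including CGTCA and, where 2 cores overlap, the full element TGACGTCA. The Malat1 window is chr19:5802623-5802922 (GRCm38.p6, minus strand) and the Meg3 window chr12:109540746-109541045 (GRCm38.p6, plus strand).
Malat1: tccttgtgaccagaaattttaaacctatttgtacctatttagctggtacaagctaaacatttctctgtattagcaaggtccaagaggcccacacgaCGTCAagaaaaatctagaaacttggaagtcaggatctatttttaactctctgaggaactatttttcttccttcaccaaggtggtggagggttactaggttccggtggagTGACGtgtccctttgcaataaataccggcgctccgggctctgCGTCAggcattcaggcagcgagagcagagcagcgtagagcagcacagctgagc
Meg3: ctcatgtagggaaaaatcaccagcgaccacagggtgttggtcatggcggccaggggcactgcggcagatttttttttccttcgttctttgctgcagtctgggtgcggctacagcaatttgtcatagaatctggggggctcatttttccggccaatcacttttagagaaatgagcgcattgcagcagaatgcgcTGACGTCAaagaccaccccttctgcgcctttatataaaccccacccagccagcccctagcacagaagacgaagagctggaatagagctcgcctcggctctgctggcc
Malat1 has 3 cores, beginning 154, 45 and 3 bases before the start, and Meg3 has 1 full element beginning 57 bases before it. Of 32851 promoter windows in the table, 20.8% held at least 1 core, 1.03% held 3 or more and 1.79% held the full element. The letters TATAAA, which occur in 13.6% of the windows on either strand, were found in the Meg3 window and not in that of Malat1. None of these motifs was found in the windows of Miat and Snhg11 or in that of a second Meg3 start. A match describes the letters only and says nothing of binding.

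Hippocampal RNA of male DBA/2 mice was measured after 30 days of venlafaxine, an antidepressant that blocks serotonin and noradrenaline reuptake, given in the drinking water at 0 (control), 30 (low dose) or 100 (high dose) mg per kg body weight and day. The 10 animals of a dose group gave 1 pool of right and 1 pool of left hippocampi, each hybridized to 1 array, and the labels do not say whether both pools came from the same brains, so every test measures only the spread between pools. All low dose arrays and replicate 1 of the control and high dose groups were hybridized on a first date, the other two on a later date. Right hippocampi made up replicate 1 of the control and low dose groups and replicate 2 of the high dose group. The 2 later arrays had the lowest RNA integrity numbers, 7.9 and 8.2, against 8.5 to 9.1 on the first date. Over all probe sets the Pearson correlation was 0.997 between control and high dose arrays of the later date and 0.995 between the 2 control arrays. Of 10 hippocampal marker genes, 10 lay above the array median on at least 2 arrays. Levels are log2 values as deposited, and no level of 1 probe set is set against that of another. In bulk tissue fewer cells of a type and less RNA per cell cannot be told apart.

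Malat1 had lower mean values at the high dose than in the controls on 7 of 7 probe sets, by 0.076 to 0.63 on the log2 scale. Of all 23171 tested probe sets, 64.6% were lower in mean at the high dose. The probe sets of the other 4 genes had differences from -0.21 (Snhg11 1437311_at) to 0.09. In at least 1 of the alternatives run, 1 of the 7 Malat1 probe sets (1436202_at) and 13 of the 17 others turned their sign. Of the 24 probe sets, 7 had both high dose arrays below both control arrays, 5 of Malat1 and 2 of Meg3, where 18.2% of all 23171 tested probe sets did. On 6 both high dose arrays lay below the other 4 arrays, with a share of 10.1% over all tested probe sets. Since the members were chosen by this comparison, nothing is read from either count, nor from the number of probe sets that turned or kept their sign.

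The largest of these differences was on 1418188_a_at, which measured 12.25 and 12.41 on the control arrays, 12.18 and 12.23 on the low dose arrays and 11.73 and 11.67 on the high dose arrays. Both high dose arrays stood apart below the other 4, and the means were 12.33 ± 0.115 (SD, n = 2), 12.20 ± 0.038 (SD, n = 2) and 11.70 ± 0.039 (SD, n = 2), so that high dose and control differed by -0.63, or 1.54-fold. The probe set 1418189_s_at, which the annotation derives from the same source sequence, read 13.36 and 13.55 in the controls, 13.33 and 13.36 at the low dose and 13.17 and 12.52 at the high dose. Its mean difference of -0.61 rested on high dose replicate 2 in large part: it was -0.28 without that array and -0.94 without high dose replicate 1.

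On 1438403_s_at the control arrays measured 11.66 and 11.83, the low dose arrays 11.68 and 11.75 and the high dose arrays 11.41 and 11.31. The high dose arrays were again the lowest pair, and the mean difference was -0.38, or 1.31-fold. A smaller difference of -0.21 separated the high dose arrays (8.01 and 7.99) from the controls (8.06 and 8.36) on 1427285_s_at. That difference was -0.059 without control replicate 2 and -0.36 without control replicate 1.

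The remaining Malat1 probe sets did not separate the high dose arrays from all others. For 1452378_at, which shares its source sequence with 1427285_s_at, the controls read 9.14 and 9.59 and the treated arrays overlapped each other, with 8.91 and 8.86 at the low and 8.68 and 8.95 at the high dose. Both doses thus lay below the controls, by 0.55 at the high dose, and this difference was -0.32 without control replicate 2. On 1436202_at the values were 9.89 and 10.23 in the controls, 9.71 and 9.84 at the low dose and 9.83 and 10.02 at the high dose. Both low dose arrays lay below both controls, while the high dose arrays overlapped either group. The mean difference between high dose and control of -0.14 was 0.03 without control replicate 2. The values of 1429060_at stayed within 0.17 of each other on all 6 arrays, and its mean difference between high dose and control was -0.076.

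**Figure D1:**
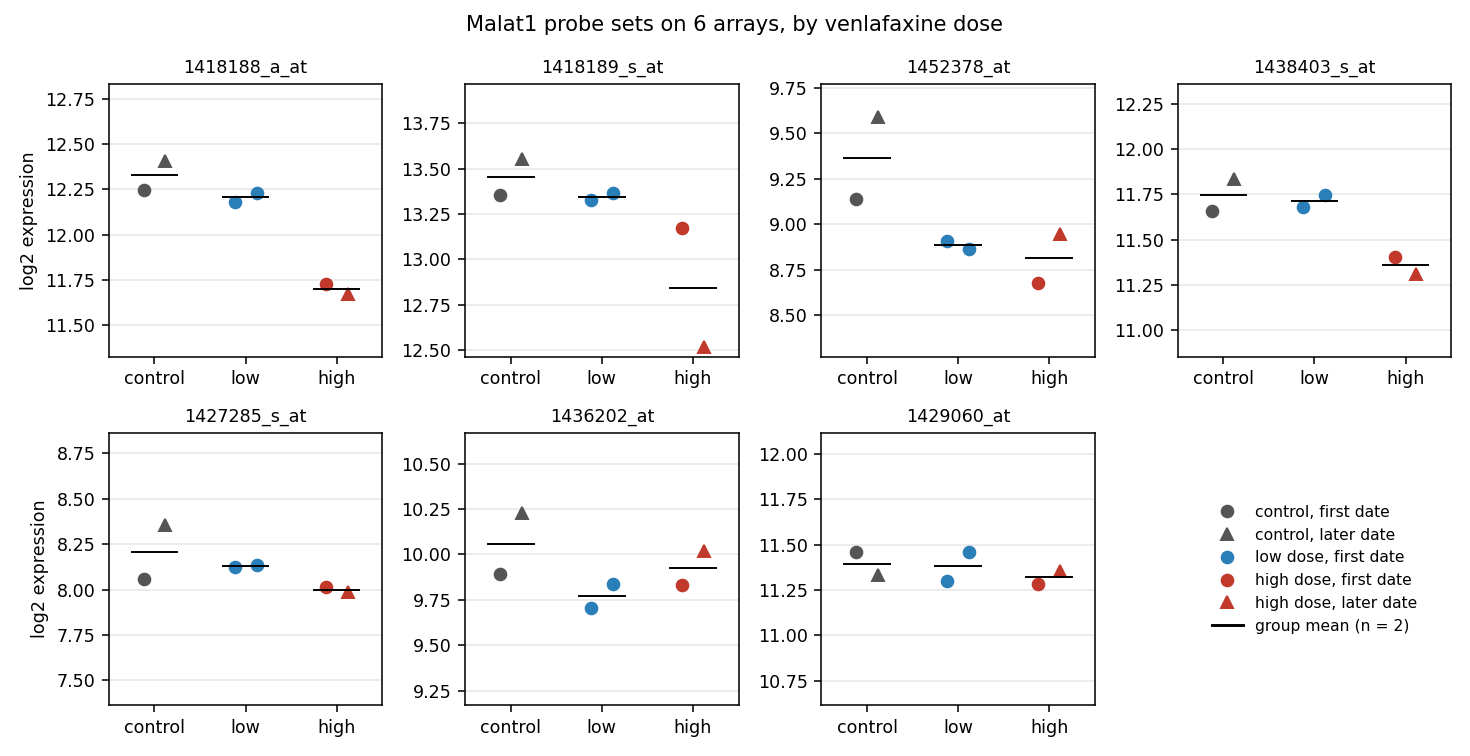
Log2 expression (vertical axis, an equal span of 1.5 in each panel) of the 7 Malat1 probe sets on 6 arrays, grouped by dose; circles are arrays of the first hybridization date, triangles those of the later date, and bars are means of 2 arrays. Both high dose arrays are the lowest in 4 panels, whereas the high dose arrays overlap the controls for 1429060_at and 1436202_at.

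Differences within dates and within sides pair the same arrays anew. They are parts of the comparison that chose the members, so their signs are a description only. No share over all probe sets was taken for a single date or side. On the first date high dose replicate 1 lay below control replicate 1 on 7 of 7 probe sets, with differences from -0.52 to -0.045 and a median of -0.18. On the later date 6 of 7 were lower, from -1.03 on 1418189_s_at to 0.02 on 1429060_at, with a median of -0.52. Between left pools 7 of 7 were lower (median -0.40) and between right pools 6 of 7 (median -0.19). The high dose array was below the control array on both dates for 12 of the 24 probe sets, 6 of them Malat1 and 5 Meg3, and for 34.6% of all tested probe sets. The high dose fit with no further term had 0 calls in 23171 probe sets (limma with Benjamini-Hochberg adjustment, 0%), with 553 at an unadjusted p under 0.05. For control and high dose, replicates of 1 number share a date; the fit with the replicate block had 17 calls and that with the date as a block 122. Without high dose replicate 1 there were 70 calls and without high dose replicate 2 there were 95.

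Meg3 differed less by dose. At the high dose its 11 probe sets had mean differences from -0.18 to -0.03 with a median of -0.11, where the median of all tested probe sets was -0.03. Only 1426758_s_at, 1428765_at, 1452183_a_at and 1452906_at stayed below 0 in all alternatives that held them. Of the others 1428764_at ran from -0.555 to 0.33, and 1436713_s_at turned to 0.016 after quantile normalization. The lowest was 1452183_a_at, with 13.41 and 13.22 in the controls, 13.21 and 13.42 at the low dose and 13.09 and 13.19 at the high dose. Its high dose arrays lay below the rest by 0.02 or more, within the spread of either other group. On the first date 11 of 11 Meg3 probe sets were lower at the high dose (median -0.27), against 5 of 11 on the later date (median 0.003). The sign therefore did not carry over from 1 date to the other for 6 Meg3 probe sets. No share over all probe sets was taken for the first date alone. The gene lists used below also had lower mean levels on high dose replicate 1 than on control replicate 1, except oligodendrocyte markers. Neuron markers, for example, averaged 12.65 and 12.74. The 11 of 11 is thus not read as particular to Meg3.

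Of the other Meg3 probe sets, none but 1426758_s_at had both high dose arrays below both controls. Probe set 1428765_at read 12.54 and 12.39 in the controls, 12.38 and 12.42 at the low dose and 12.22 and 12.39 at the high dose. On 1452905_at the values were 13.69 and 13.69 in the controls, 13.55 and 13.75 at the low dose and 13.52 and 13.69 at the high dose. For 1452906_at they were 13.79 and 13.89 in the controls, 13.71 and 13.92 at the low dose and 13.65 and 13.82 at the high dose. In these 3 the high dose arrays overlapped the controls or the low dose arrays. Probe set 1426758_s_at, from the same source sequence as 1452183_a_at, had 12.04 and 11.78 in the controls, 11.90 and 12.02 at the low dose and 11.78 and 11.74 at the high dose. On 1429256_at the levels were 13.32 and 12.96 in the controls, 13.13 and 13.29 at the low dose and 13.01 and 13.01 at the high dose. The probe set 1429257_at gave 11.69 and 11.76 in the controls, 11.55 and 11.59 at the low dose and 11.32 and 11.93 at the high dose. Its later high dose array was the highest of the 6 and its first-date high dose array the lowest. Levels of 1436057_at were 11.70 and 11.29 in the controls, 11.47 and 11.59 at the low dose and 11.41 and 11.33 at the high dose. Those of 1436713_s_at were 11.36 and 11.16 in the controls, 11.19 and 11.33 at the low dose and 11.33 and 11.13 at the high dose. The values of 1439380_x_at were 13.64 and 13.86 in the controls, 13.51 and 13.78 at the low dose and 13.54 and 13.82 at the high dose. Both later arrays were the lowest on 1436057_at and 1436713_s_at and the highest on 1439380_x_at.

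Miat and Neat1 had mean differences from -0.07 to 0.09 at the high dose, and none kept 1 sign over the alternatives. Miat probe set 1455325_at read 12.45 and 12.32 in the controls, 12.26 and 12.48 at the low dose and 12.23 and 12.40 at the high dose, and 1458903_at stayed between 8.69 and 8.83 on the 6 arrays. The 3 groups overlapped on both. Neat1 probe set 1428083_at had 8.82 and 8.47 in the controls, 8.83 and 8.93 at the low dose and 8.72 and 8.74 at the high dose, and 1442881_at ranged from 8.15 to 8.34. Only the low dose arrays of 1428083_at stood clear of the controls. Snhg11 had a mean difference of -0.21 on 1437311_at, which was 0.37 without high dose replicate 1, -0.79 without high dose replicate 2, 0.14 without control replicate 2 and -0.57 without control replicate 1. On 1434292_at it was -0.10, and 0.12 without control replicate 1 or 0.07 without high dose replicate 2. On both probe sets the 2 control arrays, and the 2 high dose arrays, lay further apart than the means of these groups.

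At the low dose, limma called 0 of the 24 probe sets and 0 of all 23171 (0%), with 595 of the latter and 2 of the former at an unadjusted p under 0.05. This comparison uses the same control arrays as the high dose one. Both low dose arrays lay below both controls on 5 of the 24 probe sets, against 12.4% of all tested probe sets. The log2 difference was -0.48 (95% interval -0.80 to -0.16, limma adjusted p = 1) for Malat1 1452378_at and -0.29 (-0.56 to -0.01, limma adjusted p = 1) for Malat1 1436202_at. Against the control array of the first date alone the same differences were -0.25 and -0.12, and with RIN as a covariate -0.084 and 0.03. The Malat1 probe sets 1418188_a_at and 1418189_s_at had -0.12 (-0.34 to 0.09) and -0.11 (-0.49 to 0.28). Snhg11 1437311_at had -0.49 (-1.18 to 0.20, limma adjusted p = 1), and -0.13 against the first date's control, -0.02 with the date as a block and 0.37 with RIN as a covariate. Over the alternatives 20 of the 24 probe sets took both signs at the low dose. With the replicate block, Malat1 1452378_at (adjusted p = 0.0156, limma) and Snhg11 1437311_at (0.023, limma) passed, although low dose replicates share 1 date and the number does not pair them with the controls. Both also passed without high dose replicate 1 or high dose replicate 2 (limma adjusted p = 0.0237 for Malat1 1452378_at and 0.0264 for Snhg11 1437311_at).

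Neat1 1428083_at was 0.24 higher in mean at the low dose (95% interval -0.02 to 0.50, limma adjusted p = 1), with both low dose arrays above both controls. Against the first date's control its difference was 0.06, and with RIN as a covariate 0.007. Most genes tested had positive values at the low dose, with 3809 of 11743 below 0. Of neuron markers 0 of 11 and of astrocyte markers 1 of 9 were below 0. The medians of oligodendrocyte and choroid plexus markers were the highest among the marker lists. The 8 tested markers of oligodendrocytes, a glial class, had a median of 0.32, with 0 passing (limma), and a mean level of 11.92 and 12.00 on the low dose arrays against 11.79 and 11.56 on the controls and 11.79 and 11.46 on the high dose arrays. The 7 tested markers of the choroid plexus, which lies in the ventricles, had a median of 0.29 at the low dose and 0.22 at the high dose, 7 of 7 above 0 at each and 0 passing (limma). Their mean level was 9.96 and 9.69 on the control, 9.996 and 10.21 on the low dose and 9.81 and 10.25 on the high dose arrays. For astrocyte markers the median was 0.07 and for all genes tested 0.04. Every measured marker of these lists passed the filter: all 9 listed for astrocytes, 8 of 9 listed for oligodendrocytes and 7 of 8 listed for the choroid plexus. The remaining listed markers had no probe set with their symbol alone. The part of these cells in the values of Neat1 and Malat1 was not tested.

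**Figure D2:**
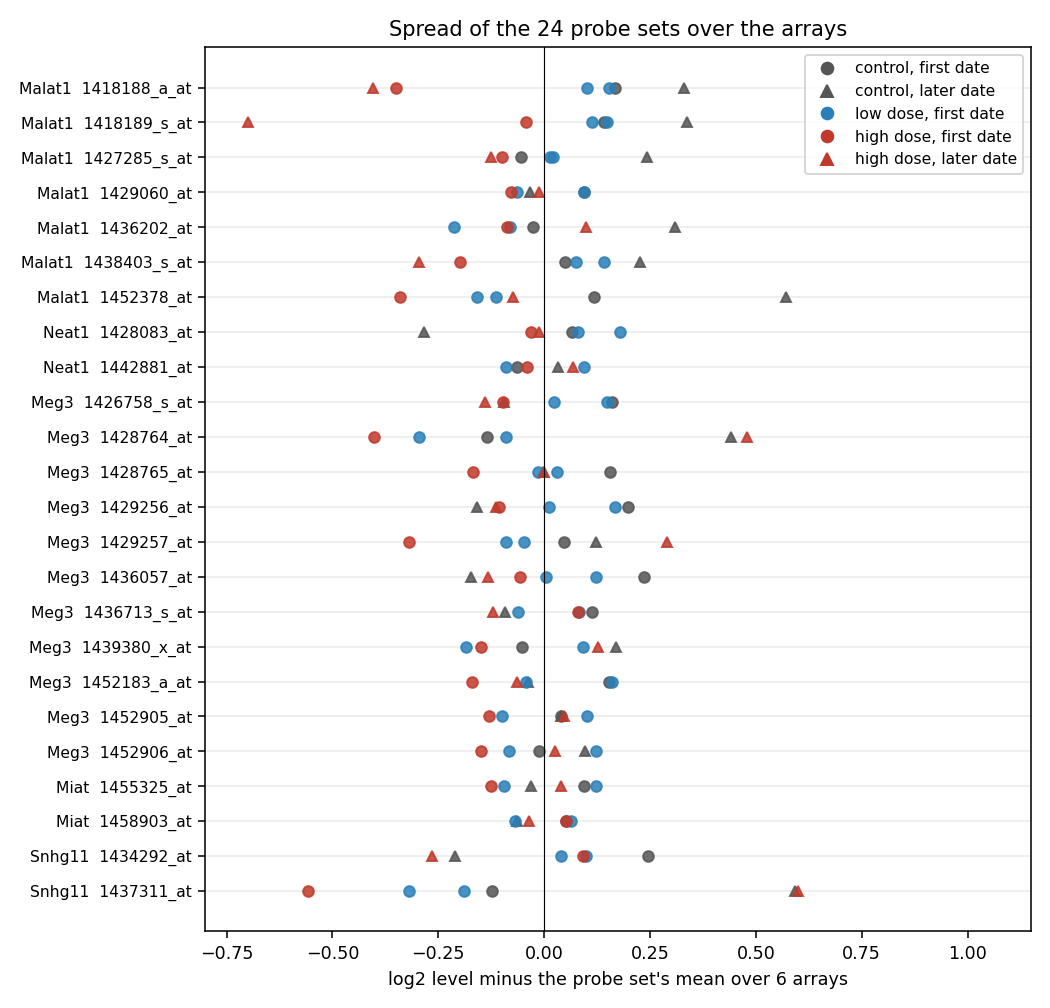
Log2 level of each of the 24 probe sets minus its own mean over the 6 arrays (horizontal axis); colours are dose groups, circles the first and triangles the later date. The red high dose symbols lie to the left for Malat1 1418188_a_at, 1418189_s_at and 1438403_s_at, and the triangles lie apart from the circles for Meg3 1428764_at and both Snhg11 probe sets.

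The hybridization date separated Snhg11 and part of Meg3 far more than dose did. In the fit with dose group and date, limma called 6 of the 24 probe sets, 5 higher and 1 lower on the later date, where 11.5% of all tested probe sets passed (992 higher, 1678 lower, and 1647 higher, 1601 lower after quantile normalization). All probe sets shared 1 estimate of the spread in this fit, with a standard error of 0.093, so that the p-values order probe sets by size of difference. Their size also depended on the settings. After quantile normalization the limma adjusted p was 0.0013 for Snhg11 1437311_at and 0.0015 for Meg3 1428764_at, far above the values given below.

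The 2 probe sets of Snhg11 went in opposite directions. On the first date 1437311_at read 11.38 in the control, 11.19 and 11.32 at the low dose and 10.95 at the high dose, and on the later date it read 12.10 in the control and 12.10 at the high dose. Both later arrays stood above the other 4, and the probe set rose by 0.94 (95% interval 0.75 to 1.12, limma adjusted p = 3.04e-20) or 1.91-fold, rank 3 from the top of all 23171. Its partner 1434292_at measured 13.06, 12.86, 12.92 and 12.91 on the first-date arrays in the same order and 12.61 and 12.56 on the later ones. Here both later arrays were the lowest, and the probe set had a difference of -0.41 (95% interval -0.59 to -0.22, limma adjusted p = 0.000425). Without either control array the latter was -0.36, while 1437311_at ran from 0.72 to 1.16 over the 12 alternatives that held it.

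Meg3 split in the same manner. Its probe set 1428764_at read 13.23 in the control, 13.07 and 13.28 at the low dose and 12.97 at the high dose on the first date, and 13.81 and 13.85 in control and high dose on the later date, a rise of 0.73 (95% interval 0.55 to 0.91, limma adjusted p = 2.61e-12) or 1.66-fold. The 2 other probe sets derived from the same source sequence did not pass, 1428765_at with 0.004 (-0.18 to 0.19, limma adjusted p = 0.988) and 1452905_at with 0.09 (-0.09 to 0.27, limma adjusted p = 0.643). From another shared source sequence, 1429257_at rose by 0.34 (0.16 to 0.52, limma adjusted p = 0.0044) and 1429256_at had -0.18 (-0.36 to 0.001, limma adjusted p = 0.219). The first of these rested on the high dose pair, since it was 0.08 without either high dose array. Over the 11 probe sets the date difference ran from -0.24 on 1436057_at to 0.73, and 9 of the 11 did not pass.

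Malat1 1452378_at rose by 0.36 on the later date (95% interval 0.18 to 0.54, limma adjusted p = 0.00231), with 0.45 between the control arrays and 0.27 between the high dose arrays. Without either control array it was 0.27, which rests on the high dose pair alone. Malat1 1436202_at rose by 0.26 (0.08 to 0.44, limma adjusted p = 0.0459) and lost its call in 9 of 12 alternatives. The other 5 Malat1 probe sets ran from -0.23 to 0.13 and did not pass. The lowest of them, 1418189_s_at, was -0.66 without either control array and 0.19 without either high dose array. Each of these values rests on 1 array per date, and within such a pair side changes together with date. For Miat the 2 values were 0.02 (-0.16 to 0.20) and -0.10 (-0.28 to 0.08), and for Neat1 -0.17 (-0.35 to 0.02) and 0.10 (-0.08 to 0.28).

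Both later arrays lay above all 4 first-date arrays on 5 of the 24 probe sets, against 9.83% of all tested ones, and below them on 4, against 28.8%. The measures of RNA integrity moved with the date. The control probe sets of beta-actin differed between the 3' and the 5' end of the transcript by 1.05 to 1.19 on first-date arrays and by at least 1.38 on the later ones. Those of Gapdh differed by 0.09 to 0.22 and by 0.35 and 0.34. Oligodendrocyte markers averaged 11.88 over first-date and 11.51 over later arrays, and 4 of 8 fell with the date, where 6.96% of all genes tested did. The part of RNA integrity or of oligodendrocyte RNA in the differences between dates was not tested.

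**Figure D3:**
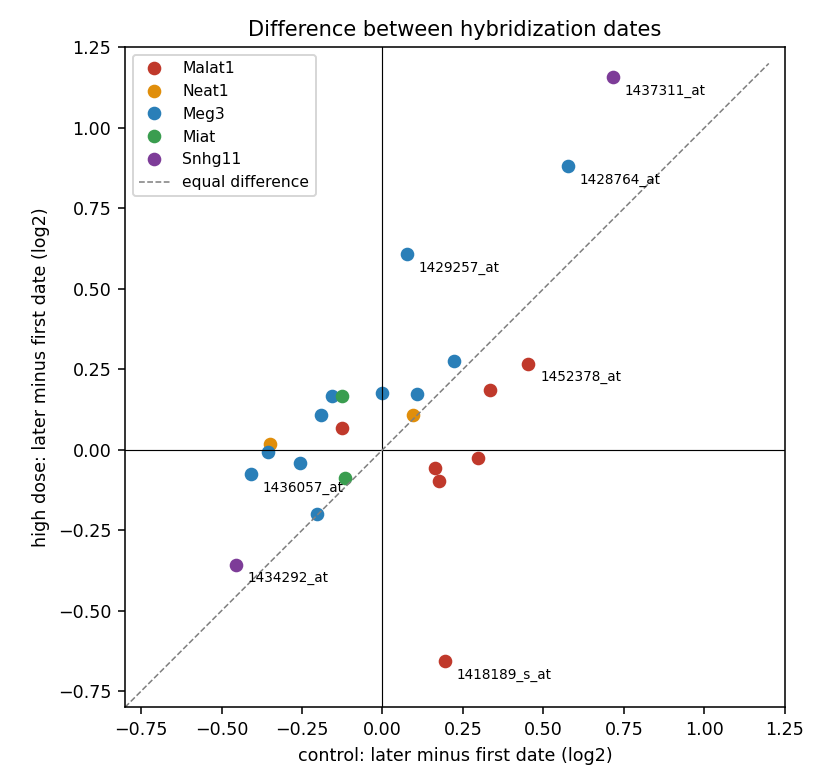
Later minus first date in log2, for the control arrays (horizontal axis) and for the high dose arrays (vertical axis), 1 point for each of the 24 probe sets; the dashed line marks an equal difference in both groups. Snhg11 1437311_at (0.72 and 1.16) and Meg3 1428764_at (0.58 and 0.88) lie far to the upper right, and Malat1 1418189_s_at (0.19 and -0.66) lies below the line.

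For 5 of the 7 Malat1 probe sets the step from the first to the later date had opposite signs in control and high dose. The high dose difference of 1418189_s_at went from -0.18 to -1.03, a change of -0.85 that rests on 1 array per group and date. As part of the comparison that chose the members, it was given no test of its own. In this design that change equals left against right pools within control and high dose, so date and side cannot be told apart in it. Between the 2 low dose arrays, both of the first date, left minus right was 0.04 for this probe set.

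By side, with dose group as a term, 0 of the 24 probe sets and 0 of 23171 passed (limma, 0%), with 100 and 1 at an unadjusted p under 0.05 over all and among the members. That 1 was Malat1 1418189_s_at, with a left minus right difference of 0.30 (95% interval 0.06 to 0.53, limma adjusted p = 1), 0.12 without either high dose array and 0.43 without either low dose array. Its control and high dose parts are the same values as the change between dates given above, so it is not a separate result. The other members ran from -0.16 on Meg3 1429257_at to 0.11, and 18 of the 24 took both signs over the alternatives. Left and right pools overlapped on all 24 probe sets. The share of such overlap over all tested probe sets was not taken, so nothing is read from it. Intervals for Snhg11 1437311_at (-0.51 to 0.30) and Meg3 1428764_at (-0.38 to 0.31) were wide.

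**Figure D4:**
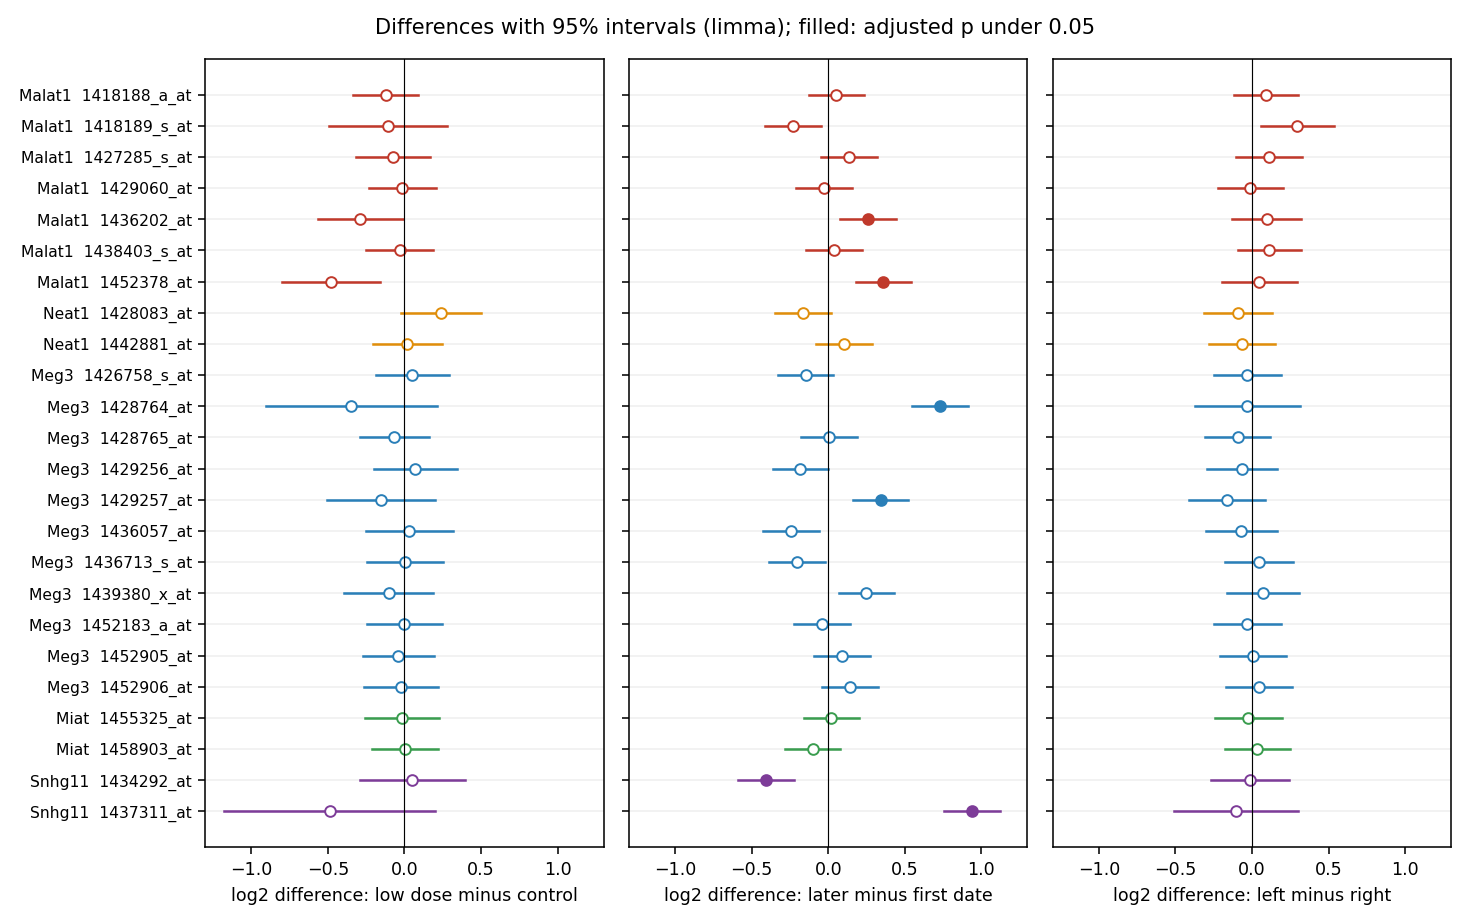
Log2 differences of the 24 probe sets with 95% intervals from limma for low dose minus control, later minus first date and left minus right; filled points had an adjusted p under 0.05. The 6 filled points are all in the date panel, on Snhg11, Meg3 and Malat1.

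Proteins that share nuclear bodies with these RNAs were taken from lists of speckle and paraspeckle components. Of 28 tested speckle genes, 0 passed at either dose, with a median of -0.04 at the high and 0.03 at the low dose, beside -0.03 and 0.04 for all genes tested. The largest difference at the high dose was that of Tra2a, a splicing regulator, with -0.52. By date 3 of the 28 rose and 4 fell, beside 165 and 817 of all 11743 genes tested (1.41% and 6.96%). Among those of the list were Srrm2, a core speckle scaffold (0.80, limma adjusted p = 6.64e-15), the kinase Srpk2, which acts on splicing factors (0.65, limma adjusted p = 8.13e-10), Tra2a (-0.50, limma adjusted p = 5.36e-06) and the RNA-binding protein Qk (-0.41, limma adjusted p = 0.00038). None of 18 tested paraspeckle genes passed in any comparison by limma. Their medians were -0.05 at the high dose, 0.02 at the low dose and -0.08 by date, and Pspc1, a partner of Nono in paraspeckles, had 0.15 at the high and 0.28 at the low dose.

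Of the Dlk1 and Meg3 cluster 4 genes were tested and 0 passed. Rian and Mirg, noncoding RNAs of the same imprinted locus as Meg3, had -0.16 and -0.17 at the high dose, -0.08 and 0.05 at the low dose and -0.05 and -0.11 by date. Of 31 other long noncoding RNAs 0 passed by dose, with medians of -0.02 at the high and 0.05 at the low dose. By date 2 of the 31 rose and 2 fell: Lncpint, a p53-induced RNA (0.53, limma adjusted p = 9.43e-07) and Norad, which binds Pumilio proteins (0.28, limma adjusted p = 0.0314), rose, and Ftx, an RNA of the X-inactivation centre (-0.30, limma adjusted p = 0.015) and Pantr1 (-0.27, limma adjusted p = 0.037) fell.

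Among 5058 genes with a range of at least 0.3 over the arrays, those most like Malat1 1418189_s_at were Pmepa1, Eif5a2, Gabrd, Crhr1 and Pde10a, with Pearson correlations over the 6 arrays of 0.966, 0.957, 0.952, 0.950 and 0.949. The arrays share dose, date and side, and high dose replicate 2 was the lowest for all 5, for example 8.85 for Gabrd against 9.13 to 9.39 on the other arrays. Within the group, the correlation with 1418189_s_at was 0.889 for 1438403_s_at and 0.851 for 1418188_a_at but 0.151 for 1429060_at and -0.001 for 1436202_at, and for the members that are not Malat1 it ran from -0.42 to 0.49.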

How the data were processed

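The authors deposited log2 expression for 45101 probe sets on 6 Affymetrix mouse genome arrays, made with RMA in R 3.0.1, per the submitters' processing notes. No source used here gives the RMA settings, and the values themselves (6.10 to 15.31) show the log2 scale. Probe sets were named by the platform annotation with symbols updated by Entrez identifier; 34945 had 1 symbol, 932 several and 9160 none, while 64 Affymetrix controls were left out. The 23171 probe sets that exceeded the array median on 2 or more arrays were tested with limma 3.58.1 in R 4.3.3 (lmFit, eBayes, two-sided, Benjamini-Hochberg adjustment over all tested, threshold 0.05), on all 6 arrays: dose groups alone for dose, dose group plus date or side otherwise. In lists the probe set of the highest mean stood for a gene. Named were every member probe set, up to 4 genes of a list by moderated statistic, and 5 genes by likeness to Malat1. Members and lists were chosen with earlier results of these data known. Over probe sets, the difference between replicates of the control correlated at 0.594 with that of the high dose (paired by date in the labels) and at 0.018 with that of the low dose, and the low and high dose differences correlated at -0.015. No 2 arrays held the same value at any probe set. Fits were tested on simulated arrays. Alternatives covered filters, quantile normalization, 1 probe set per gene, the variance prior, added terms and each array left out. The number of arrays limits the precision.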

Additional observations from a re-analysis of the deposited data

How the results depend on the processing

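Counts of called probe sets moved with the settings; where terms were added or arrays left out the cause was not tested. For high dose against control the count was 0, and 1 with the stricter filter, with 1 probe set per gene and with trend and robust settings, 17 with the replicate block, 122 with the date as a block, 2 with side, 47 with side and date, 65 with RIN, and 0 to 95 without 1 array. For low dose against control it was 0, and 5 with 1 probe set per gene, 99 with the replicate block (2 of the members, Malat1 1452378_at and Snhg11 1437311_at), 48 with the date as a block, 2 with side, 23 with side and date, 48 with RIN, and 0 to 100 without 1 array, the highest without either high dose array (0 to 2 of the members). For the date the count of 2670 was 818 with 1 probe set per gene, which tests fewer probe sets and 1 per member gene, of which 1 passed (Snhg11 1434292_at), and 1405 (without either control array) to 2229 without 1 array, 1690 without either high dose array, with 4 to 5 members called. For side it was 0, and 7 with the date, 16 with the replicate block and 0 to 2 without 1 array, with 0 members called in each. Side and date fits leave 1 residual degree of freedom. The median Malat1 difference at the high dose was -0.38 and lay between -0.61 and -0.28 over 16 alternatives. It changed only with quantile normalization, 1 probe set per gene or RIN, or without a control or high dose array. The other settings could not alter it. The value of -0.61 is that of the single Malat1 probe set kept with 1 probe set per gene. Since the members were chosen by this comparison, nothing is read from the range. The 6 member probe sets called by date kept their direction in each alternative run. Their date differences changed only with quantile normalization or without a control or high dose array, since the other settings could not alter them. Over the alternatives both signs occurred on 14 of the 24 member probe sets at the high dose, 20 at the low dose, 10 by date and 18 by side.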
